A study of Homo sapiens with 2 samples.

Results

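The 10 genes described here encode feedback inhibitors and a transcriptional output of the mitogen-activated protein kinase (MAPK) pathways: the phosphatase genes DUSP1, DUSP4, DUSP5, DUSP6 and DUSP10, the Sprouty genes SPRY2 and SPRY4, the Spred genes SPRED1 and SPRED2, and the ETS transcription factor gene ETV5. They were chosen by symbol, each symbol matched 1 Ensembl gene ID through a GRCh37 annotation, and they are 10 of the 63677 gene IDs counted. RNA was sequenced from MDA-MB-231, a widely used line of human breast cancer cells that lacks estrogen receptor, progesterone receptor and HER2 amplification. The CCE library came from cells given 1 µg/mL of Carpesium cernuum extract (CCE, from a flowering plant) over 24 h, and the other library from control cells. The labels do not say how the control cells were handled, and no genotype beyond the cell line is labelled in either group. Each group has 1 library, so no spread between cultures could be measured and no p-value is given. Intervals are exact 95% counting intervals and cover counting error only.

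MAPK cascades carry signals from growth factor receptors and stress sensors to the nucleus: receptors activate Ras, which activates RAF, MEK and then the kinase ERK, while parallel cascades end in the kinases JNK and p38. Active ERK induces genes that switch the pathway off again. Dual-specificity phosphatases (DUSPs) remove the activating phosphates from the kinases themselves, and Sprouty and Spred proteins act upstream, between the receptor and RAF. Transcripts of DUSP, Sprouty and PEA3-family ETS genes are widely read as a measure of ERK output in tumour cells.

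The CCE library held 34884501 counts on genes and the control library 5633569. After scaling by trimmed mean of M values (TMM), 1 count was worth 0.0283 CPM (counts scaled to library size) in the CCE library and 0.180 CPM in the control library, so the control library set the precision. Of the genes that mark the cell line, VIM (vimentin) stood at 1801 CPM in the CCE library and 3739 CPM in the control library, CD44 at 616 and 767 CPM, and the estrogen receptor gene ESR1 had 0 counts in both, where 3 counts would be 0.0849 and 0.540 CPM. The E-cadherin gene CDH1 had 1 count in the CCE library and 0 in the control library. Other marker genes were less clear-cut. The HER2 gene ERBB2 was detected, at 51.8 CPM in the CCE library and 55.4 CPM in the control library. EPCAM was detected too, with 265 counts in the CCE library and 56 in the control library. SPARC was scarce, with 26 counts in the CCE library and 5 in the control library. Since these are bulk samples, fewer cells carrying a transcript and less of it per cell cannot be told apart.

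By counts, most of the 10 feedback genes in the CCE library stood close to their control level, and the 2 that passed 1.5-fold were phosphatase genes. DUSP10 and DUSP4 were at least 1.5-fold lower, at log2 ratios of -0.80 and -0.61, and 0 of the 10 were at least 1.5-fold higher. DUSP6 and SPRED1 had log2 ratios of -0.45 and -0.31, and DUSP5 and SPRY2 had 0.23 and 0.25, with intervals that left out 0 but short of 1.5-fold. The authors' FPKM values, given further on, placed SPRY2 on the lower side at -1.32 and left DUSP4 short of 1.5-fold at -0.54. DUSP1, SPRY4, SPRED2 and ETV5 had intervals that held a ratio of 1. The median log2 ratio of the 10 was -0.08, beside 0.05 over all 14424 measured genes (mean over both libraries of 1 CPM or more). Calls required a ratio past 1.5-fold with an interval that left out 1. By that rule 11.3% of measured genes were lower and 12.1% higher, and 2 of 10 differs from the first share by about 1 gene. At 2-fold, 0 of the 10 were lower and 0 higher, beside 4.92% and 4.36% of measured genes. All 10 had at least 100 control counts; among the 7977 genes with that depth, 9.4% passed 1.5-fold on the lower side and 7.65% on the higher side, and 2.52% and 0.99% passed 2-fold.

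**Figure D1:**
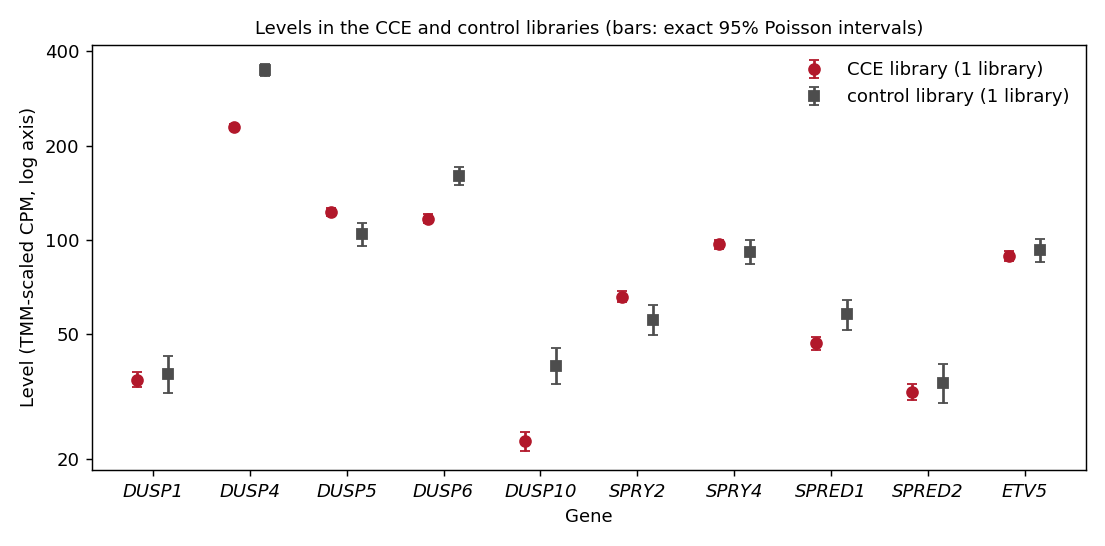
Level of each of the 10 genes in TMM-scaled CPM on a log axis, as red circles for the CCE library and grey squares for the control library (1 library each), with bars for exact 95% Poisson intervals. The intervals of DUSP4, DUSP6, DUSP10 and SPRED1 lie apart with CCE below, and those of DUSP5 and SPRY2 lie apart with CCE above. Those of DUSP1, SPRY4, SPRED2 and ETV5 overlap.

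DUSP10, a phosphatase of JNK and p38 (chromosome 1, 221874766 to 221915431, GRCh37, minus strand), had 803 counts or 22.7 CPM in the CCE library and 220 counts or 39.6 CPM in the control library. It was 1.74 times lower (interval 1.49 to 2.02), the lowest ratio of the 10. Of the 7977 genes with at least 100 control counts, 4.73% had a lower ratio. DUSP4, a nuclear phosphatase of ERK, JNK and p38 (chromosome 8, 29190581 to 29208201, minus strand), was the most abundant of the 10 by counts, with 8089 counts or 229 CPM in the CCE library and 1937 counts or 348 CPM in the control library. It was 1.52 times lower (1.45 to 1.60), so it lay at the 1.5-fold threshold: scaled to total counts on genes alone, its log2 ratio was -0.57, and DUSP10 was then the single gene of the 10 called. By the authors' FPKM DUSP4 had -0.54, also short of 1.5-fold. DUSP6, the cytoplasmic phosphatase of ERK (chromosome 12, 89741012 to 89746278, minus strand), had 4131 counts or 117 CPM in the CCE library and 889 counts or 160 CPM in the control library, a log2 ratio of -0.45 (-0.56 to -0.35). Its interval excluded equal levels, but the ratio did not pass 1.5-fold. In GRCh37, an unnamed lncRNA on the opposite strand shares exon sequence with DUSP6 and has no row in the count tables, and how strand was counted is not given.

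DUSP5 and DUSP1 passed 1.5-fold in neither direction. DUSP5, a nuclear phosphatase specific to ERK (chromosome 10, 112257665 to 112271291, plus strand), had 4323 counts or 122 CPM in the CCE library and 579 counts or 104 CPM in the control library, a log2 ratio of 0.23 (0.11 to 0.36). DUSP1, an immediate early gene whose product acts on p38, JNK and ERK (chromosome 5, 172195099 to 172198198, minus strand), had 1262 counts or 35.7 CPM in the CCE library and 207 counts or 37.2 CPM in the control library, a log2 ratio of -0.06 (-0.27 to 0.16). At this depth no difference in DUSP1 was detectable, and a difference beyond 1.21 times lower or 1.12-fold higher lies outside its interval. The 5 phosphatase genes together held 526 CPM in the CCE library and 689 CPM in the control library, a log2 ratio of -0.39 (-0.44 to -0.34), a sum to which DUSP4 gave the most counts. The sums of the same genes by FPKM were 80.4 in the CCE library and 103.6 in the control library, a log2 ratio of -0.36 with 1 added to each.

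The 250 bases before the start of the DUSP10, DUSP6 and DUSP1 genes follow, because these 3 phosphatase genes span the lowest ratio by counts and a ratio near 0. They are RefSeq promoter sequences from a GRCh38.p14 table, matched without mismatch to GRCh37, whose coordinates are given, and all are on the minus strand. Capitals mark TGACG on either strand, the shared core of the cyclic AMP response element, and TATAA.
DUSP10 (chr1:221915432-221915681): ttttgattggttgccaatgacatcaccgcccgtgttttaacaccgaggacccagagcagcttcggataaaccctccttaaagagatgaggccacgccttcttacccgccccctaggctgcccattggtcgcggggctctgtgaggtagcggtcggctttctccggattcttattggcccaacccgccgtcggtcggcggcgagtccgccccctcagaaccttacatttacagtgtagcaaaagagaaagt
DUSP6 (chr12:89746279-89746528): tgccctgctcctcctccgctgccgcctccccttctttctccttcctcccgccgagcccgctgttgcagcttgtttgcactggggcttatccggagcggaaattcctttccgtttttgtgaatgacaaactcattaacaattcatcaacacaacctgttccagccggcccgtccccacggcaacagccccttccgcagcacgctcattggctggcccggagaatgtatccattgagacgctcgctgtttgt
DUSP1 (chr5:172198199-172198448): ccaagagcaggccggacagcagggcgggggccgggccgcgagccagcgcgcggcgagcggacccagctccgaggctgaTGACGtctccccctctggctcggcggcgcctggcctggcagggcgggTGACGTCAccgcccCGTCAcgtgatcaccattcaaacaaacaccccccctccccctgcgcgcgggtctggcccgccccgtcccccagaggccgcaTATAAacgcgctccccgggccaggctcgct
The DUSP1 stretch holds the full palindrome TGACGTCA from base -125, counted back from the gene's start, and TATAA from base -30. The DUSP10 and DUSP6 stretches hold neither TGACG nor TATAA, which says only that these letters are absent from these windows.

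**Figure D2:**
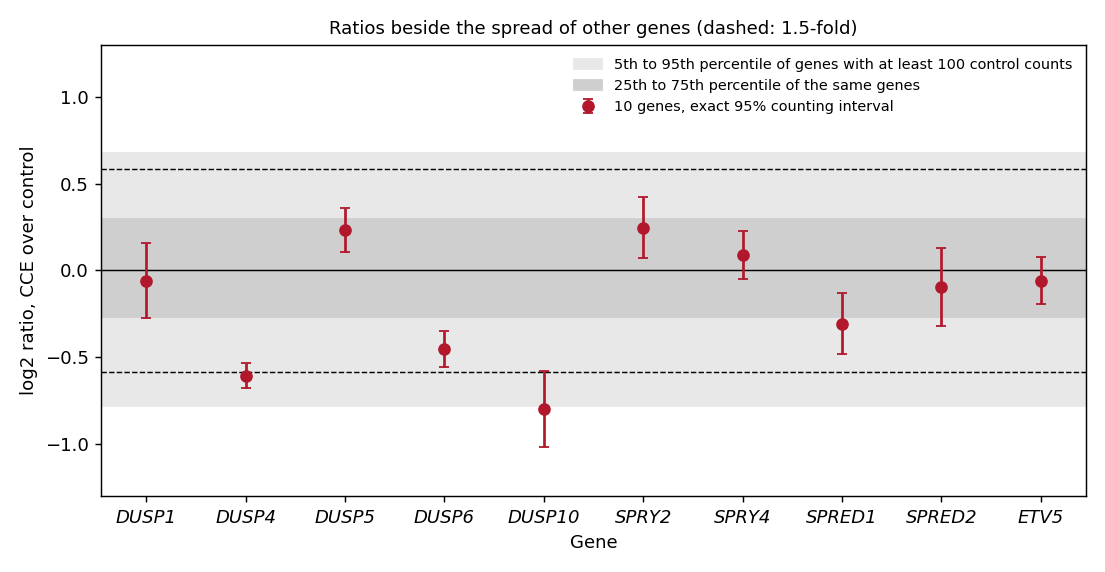
Log2 ratio, CCE over control, for the 10 genes (red circles, exact 95% counting intervals), over bands for the 5th to 95th and 25th to 75th percentiles of the 7977 genes with at least 100 control counts; dashed lines mark 1.5-fold. DUSP10 at -0.80 lies just below the outer band, which ends at -0.78, and DUSP4 at -0.61 lies inside it.

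The products of the Sprouty and Spred genes restrain signalling upstream of ERK, and by counts none of the 4 passed 1.5-fold. SPRY2 (chromosome 13, 80910111 to 80915261, minus strand) had 2328 counts or 65.9 CPM in the CCE library and 309 counts or 55.6 CPM in the control library, the highest count ratio of the 10 at a log2 value of 0.25 (0.07 to 0.42). By FPKM it lay on the other side, at -1.32 (9.0 FPKM in the CCE library and 24.0 in the control library). SPRY4 (chromosome 5, 141689992 to 141706020, minus strand) had 3423 counts or 96.8 CPM in the CCE library and 507 counts or 91.2 CPM in the control library, a log2 ratio of 0.09 (-0.05 to 0.22). SPRED1, which brings the Ras inactivator neurofibromin to the membrane (chromosome 15, 38545037 to 38649450, plus strand), had 1649 counts or 46.7 CPM in the CCE library and 321 counts or 57.7 CPM in the control library, a log2 ratio of -0.31 (-0.48 to -0.13). Its relative SPRED2 (chromosome 2, 65537985 to 65659771, minus strand) had 1153 counts or 32.6 CPM in the CCE library and 194 counts or 34.9 CPM in the control library, a log2 ratio of -0.10 (-0.32 to 0.13) by counts, against -1.37 by FPKM. Summed over these 4 genes, the level was 242 CPM in the CCE library and 239 CPM in the control library, a log2 ratio of 0.02 (-0.07 to 0.10). Summed by FPKM the 4 genes stood at 39.0 in the CCE library and 58.1 in the control library, a log2 ratio of -0.56 with 1 added to each, so the balance of this group depends on which deposited values are read.

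The promoter of SPRY2 is shown as that of the gene with the highest ratio by counts and one of the lowest by FPKM, with the same marks, on the minus strand of GRCh37. It is 1 of 3 SPRY2 starts in the RefSeq table.
SPRY2 (chr13:80915262-80915511): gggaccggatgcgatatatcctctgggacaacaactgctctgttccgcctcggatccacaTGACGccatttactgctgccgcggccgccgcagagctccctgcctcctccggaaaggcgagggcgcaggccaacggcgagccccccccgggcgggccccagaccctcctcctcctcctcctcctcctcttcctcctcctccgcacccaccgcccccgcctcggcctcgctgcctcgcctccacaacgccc
It holds TGACG once, from base -190.

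ETV5, a PEA3-family transcription factor gene induced through ERK (chromosome 3, 185764103 to 185828107, minus strand), had 3133 counts or 88.6 CPM in the CCE library and 514 counts or 92.4 CPM in the control library. Its log2 ratio of -0.06 (-0.20 to 0.08) held no detectable difference by counts, and by FPKM it had -0.42. Its family member ETV4, not one of the 10, had 1317 counts or 37.3 CPM in the CCE library and 374 counts or 67.3 CPM in the control library and was lower, at -0.85 (-1.02 to -0.68). ETV5 and ETV4 had intervals that did not overlap. ETV1, also a PEA3-family gene outside the 10, had 75.4 CPM in the CCE library and 82.2 CPM in the control library. Its log2 ratio by counts was -0.12 (-0.27 to 0.02), near that of ETV5. By FPKM, ETV4 had -1.38 and ETV1 1.20. ETV1 falls outside the rule for named genes and was added after its value was seen.

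To compare genes with each other, levels were divided by the length of their merged exons, which gives CPM per kilobase; a gene with long unused exons is understated on this scale. In the CCE library DUSP5 led with 48.2 CPM per kilobase, followed by DUSP4 at 31.5 and DUSP6 at 30.3, which did not differ beyond their counting intervals. Then came SPRY2 at 20.5, DUSP1 at 17.7, ETV5 at 15.4 and SPRY4 at 14.8 (the last pair with overlapping intervals), DUSP10 at 8.04, and SPRED1 and SPRED2 at 6.02 and 5.93, again overlapping. In the control library DUSP4 led with 47.9 CPM per kilobase, ahead of DUSP6 at 41.4 and DUSP5 at 41.1, whose intervals overlapped. Next were DUSP1 at 18.5, SPRY2 at 17.3, ETV5 at 16, DUSP10 at 14 and SPRY4 at 13.9, each overlapping its neighbour, and then SPRED1 at 7.45 and SPRED2 at 6.34, which overlapped. On this scale DUSP4, DUSP5 and DUSP6 stood at the top in both libraries. By FPKM the order was another: DUSP5 led in both, DUSP4 followed in the control library and SPRY4 in the CCE library, and DUSP6, at 4.49 FPKM in the CCE library and 6.51 FPKM in the control library, stood below SPRY4, ETV5, DUSP1 and SPRY2 in each. Among the 10 catalytically active MAPK phosphatase genes, on the same per-length scale, DUSP5 made up 33.1% of the summed level in the CCE library and 23.7% in the control library, DUSP4 21.6% and 27.6%, DUSP6 20.8% and 23.9%, DUSP1 12.2% and 10.7%, and DUSP10 5.52% and 8.07%.

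Ratios of a pair of genes within a library do not depend on how the libraries are scaled. 5 pairs were compared, chosen after the values were seen, so their quotients restate the ratios above as a description. DUSP5 had 1.05 counts per DUSP6 count in the CCE library and 0.651 in the control library, a 1.61-fold higher ratio with CCE (conditional exact interval 1.43 to 1.80). Against DUSP4, the DUSP5 ratio was 0.534 in the CCE library and 0.299 in the control library, 1.79-fold higher (1.62 to 1.98). DUSP10 had 0.636 counts per DUSP1 count in the CCE library and 1.06 in the control library, a quotient of 0.599 (0.483 to 0.742). In these quotients DUSP5 stood higher beside DUSP4 and DUSP6, and DUSP10 lower beside DUSP1, with CCE. For SPRY2 over SPRY4 the quotient was 1.12 (0.957 to 1.3), and for SPRED1 over SPRED2 it was 0.864 (0.708 to 1.05). Both intervals held 1, but these quotients are by counts. By FPKM, SPRY2 and SPRY4 stood at 9.0 and 23.8 in the CCE library and at 24.0 and 21.6 in the control library. SPRED1 and SPRED2 stood at 3.82 and 2.37 FPKM in the CCE library and at 4.79 and 7.68 in the control library. By FPKM the quotients of both pairs thus lay on the other side of 1, and those of the DUSP pairs kept their side.

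The authors' FPKM values (fragments scaled to transcript length and library size, summed over each gene's rows, depth unknown) gave 5 of the 10 genes a ratio outside their counting interval: SPRY2, SPRED2, DUSP10, DUSP5 and ETV5. SPRY2 stood at 9.0 FPKM in the CCE library and 24.0 FPKM in the control library, a difference of -1.32 on the log2(FPKM + 1) scale, the opposite side from its counts. SPRED2 stood at 2.37 FPKM in the CCE library and 7.68 FPKM in the control library, a difference of -1.37 on that scale, where counts gave -0.10. DUSP10 was lower by FPKM too, at 4.35 FPKM in the CCE library and 13.4 FPKM in the control library, a difference of -1.43. These 3 genes were at least 2-fold lower by FPKM and 0 were higher at 1.5-fold or 2-fold, while over the measured genes 24.1% passed 1.5-fold on the lower side and 21.2% on the higher side, and 13.9% and 14.4% passed 2-fold. With 0.1 in place of 1 the 3 genes and the 0 were the same, beside 27.8%, 26.9%, 18.2% and 21.7% in that order. These FPKM shares rest on the fold alone, with no interval, and are not comparable with the shares given for counts. DUSP4 at 21.3 FPKM in the CCE library and 31.4 FPKM in the control library, and DUSP6 at 4.49 and 6.51 FPKM, gave differences of -0.54 and -0.45, close to their count ratios. DUSP5 was at 36.3 FPKM in both libraries, where counts gave 0.23. ETV5 stood at 21.1 FPKM in the CCE library and 28.6 FPKM in the control library, a difference of -0.42, where counts gave -0.06. For each of the 10 genes the same row of the table, taken as a transcript, held the highest FPKM in both libraries; for SPRY2 that row was at 8.01 FPKM in the CCE library and 22.9 FPKM in the control library.

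**Figure D3:**
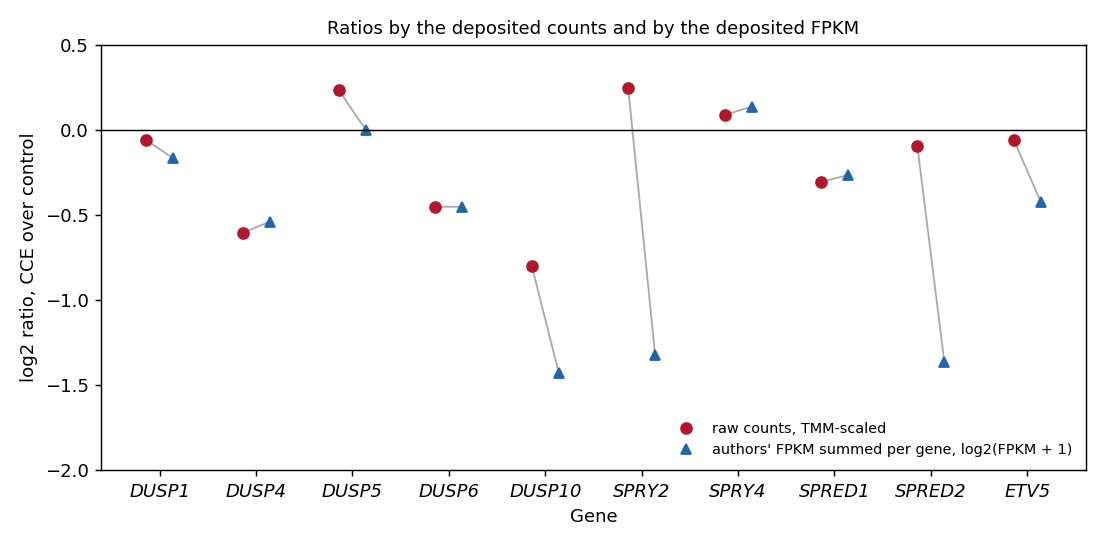
Log2 ratio, CCE over control, of each gene from TMM-scaled counts (red circles) and from the authors' FPKM on the log2(FPKM + 1) scale (blue triangles), joined by a line. SPRY2 moves from 0.25 by counts to -1.32 by FPKM and SPRED2 from -0.10 to -1.37, while DUSP4, DUSP6, SPRY4 and SPRED1 lie close together.

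Other genes of the pathway were read from 7 lists. Called counts in every list stand beside 11.3% of all 14424 measured genes at least 1.5-fold lower and 12.1% higher. No list was tested against these shares. Ratios of list genes are by counts unless FPKM is named, and FPKM gave other sizes for several of them. Of the other MAPK phosphatase genes, 3 of 5 were measured. DUSP16, a JNK and p38 phosphatase, was 1.72-fold higher (1.15 to 2.69), at 285 counts in the CCE library and 26 in the control library. DUSP8, also a JNK and p38 phosphatase, had a log2 ratio of -1.50 (-2.53 to -0.38) on 27 and 12 counts. DUSP7, an ERK phosphatase, had -0.14 (-0.32 to 0.04). By FPKM, DUSP7 had -2.35, DUSP8 -0.64 and DUSP16 2.13, with DUSP16 at 0 FPKM in the control library. Of 8 measured Sprouty, Spred and Ras-ERK inhibitor genes, 2 were at least 1.5-fold lower and 0 higher, with a median of -0.30. The Sprouty gene SPRY1 had 15.4 CPM in the CCE library and 29.0 CPM in the control library, a log2 ratio of -0.91 (-1.17 to -0.65), and IL17RD, an inhibitor of FGF signalling, had -1.38 (-1.91 to -0.83) and was listed at 0 FPKM in both libraries. The most abundant of this list, PEBP1, a RAF inhibitor, and RASA1, a Ras GTPase-activating protein gene, had -0.24 and -0.39.

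Among 18 ETS factors and other ERK output genes, 2 were at least 1.5-fold lower (ETV4 and the cyclin D1 gene CCND1, at -0.71) and 1 higher, with a median of -0.06. Minus the trend over GC content described below, the counts were 3 lower and 2 higher. The higher gene was EGR1, an immediate early transcription factor gene, 2.36-fold higher (1.84 to 3.07), with 28.5 CPM in the CCE library and 12 CPM in the control library. IER3, an abundant early response gene, was at 1110 CPM in the CCE library and 1316 CPM in the control library, a log2 ratio of -0.25. Upstream, 3 of 13 measured receptor and ligand genes were lower and 1 higher. EREG, the gene of the EGFR ligand epiregulin, was 3.52-fold higher (2.77 to 4.54), with 44.3 CPM in the CCE library and 12.6 CPM in the control library. The EGFR ligand gene HBEGF (-0.61), the growth factor gene FGF2 (-0.62) and the receptor gene AXL (-0.95) were lower. EGFR, which with AXL had the highest mean level of the list, had -0.20. FGF2 was listed at 0 FPKM in both libraries. By FPKM, EREG had 1.18, HBEGF -2.70 and AXL -2.35, on the same side as by counts.

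In the Ras-RAF-MEK-ERK cascade, 18 of 22 measured genes were called in neither direction, and the median was 0.11. The Ras activator genes SOS1 and SOS2 were higher, at 0.68 and 0.61, and HRAS and the kinase gene RPS6KA1 were lower, at -0.61 and -0.68. PTPN11 and MAP2K2, the most abundant, had 0.06 and -0.56. By FPKM, RPS6KA1 lay on the other side at 1.41, and MAP2K2 had -3.80. SOS1, SOS2 and HRAS kept their side by FPKM, at 0.80, 0.71 and -0.71. In the JNK and p38 cascade, 13 of 17 were called in neither direction, with a median of -0.14: the kinase genes MAP2K4 and MAP3K7 were higher, at 0.74 and 0.65, JUN and MAP2K3 were lower, at -0.68 and -0.60, and the abundant kinase genes MAPK14 (p38 alpha) and MAPKAPK2 had -0.11 and -0.36. Minus the GC trend, the calls in these 2 cascades were 0 higher and 1 lower each.

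Of 10 genes listed as regulators of the stability of feedback proteins or transcripts, 4 were at least 1.5-fold higher and 1 lower, with a median of 0.09. Over all measured genes, 12.1% were higher and 11.3% lower by the same rule. The ubiquitin ligase genes CBL, CBLB and NEDD4 had log2 ratios of 0.69, 0.63 and 0.59. NEDD4 falls outside the rule for named genes and was added after its value was seen. By FPKM, CBL was higher too, at 2.54, while CBLB and NEDD4 had -0.16 and -0.07. ZFP36 and ZFP36L2 encode related proteins that bind AU-rich mRNA: ZFP36 had 0.66 (0.25 to 1.11) and ZFP36L2 -1.03 (-1.22 to -0.84). ZFP36L1 and the AU-rich binding protein gene ELAVL1, the most abundant by the mean of both libraries, had -0.53 and -0.11. Minus the GC trend, 2 of the 10 were higher and 1 lower, beside 9.98% and 12% of measured genes with a GC value. In the other 3 lists the counts were the same with and without that trend.

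**Figure D4:**
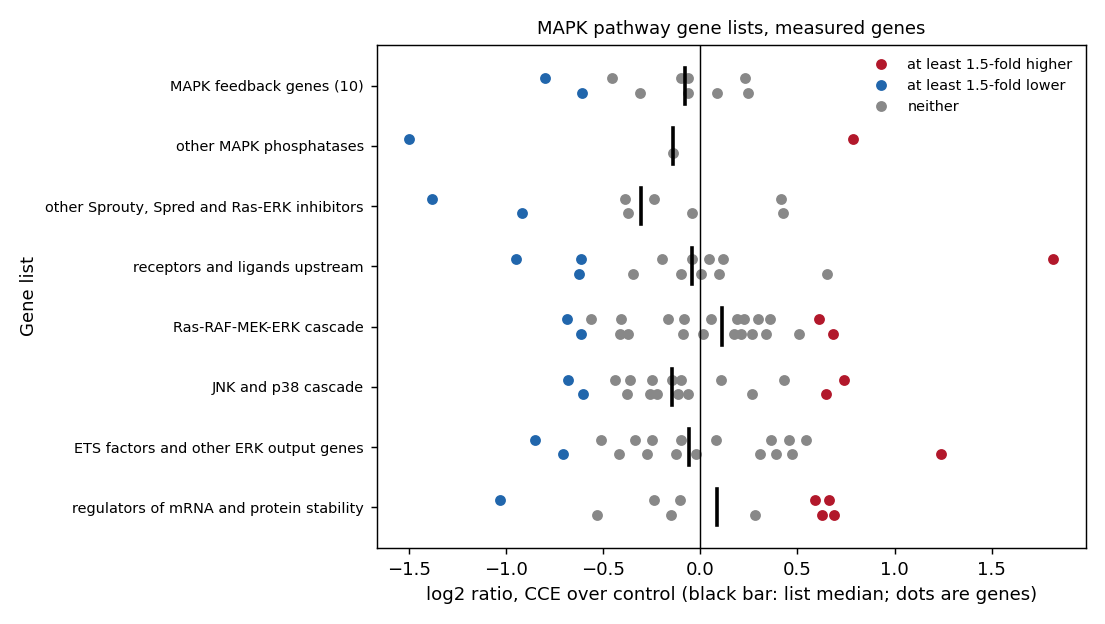
Log2 ratio, CCE over control, of each measured gene (dots) in the 10 feedback genes and 7 pathway lists, red for at least 1.5-fold higher, blue for at least 1.5-fold lower (both with an interval that left out 1) and grey for neither, with a black bar at each list's median. The medians lie between -0.30 and 0.11, and most genes of every list are grey except among the other MAPK phosphatases and the regulators of stability.

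The ratio of a gene varied with its GC content in these libraries. Over 11634 measured protein-coding genes, the lowess trend stood at 0.21 at 35% GC and at -0.22 at 65% GC. The merged exons of the 10 genes ran from 36.5% GC for SPRED1 to 55.3% for DUSP5, where the trend was 0.20 and -0.05. Less that trend, DUSP10 had a log2 ratio of -0.89, DUSP4 -0.61, DUSP6 -0.52, SPRED1 -0.50, DUSP5 0.28 and SPRY2 0.20, so the directions and the count of 2 called genes were the same. SPRED1 was the gene whose value moved beyond its counting interval. By this reading 12% of 14093 measured genes with a GC value passed 1.5-fold on the lower side and 9.98% on the higher side.

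**Figure D5:**
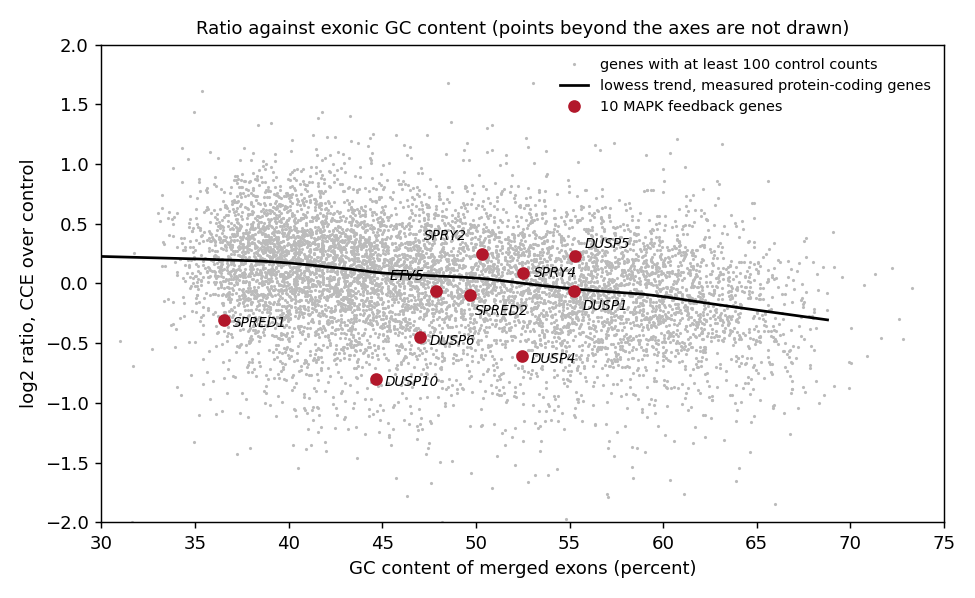
Log2 ratio, CCE over control, against the GC content of merged exons in percent, for genes with at least 100 control counts (grey dots), the lowess trend of measured protein-coding genes (black line) and the 10 feedback genes (red, named). DUSP10, DUSP4, DUSP6 and SPRED1 lie below the line, and DUSP5 and SPRY2 above it.

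Many feedback transcripts are known to be short-lived through AU-rich elements in the 3' untranslated region. In the canonical transcripts, 9 of the 10 genes held the pentamer ATTTA there, beside 73.8% of 11555 measured protein-coding genes. DUSP5, with a log2 ratio of 0.23 by counts, held 0. The median density was 2.0 per kilobase over the 10 genes and 1.77 over the measured genes. DUSP1 had the highest density of the 10, 6.01 per kilobase, and SPRED1 the highest number, 24 in 5585 bases. The nonamer TTATTTATT was found in DUSP1 and DUSP4, and in 9.73% of the measured genes. These 2 genes had unlike log2 ratios by counts, -0.06 for DUSP1 and -0.61 for DUSP4. The DUSP1 matches are shown as an example, and the DUSP4 match is not shown. Both DUSP1 matches lie in its 3' untranslated region on the minus strand of GRCh37, with the nonamer in capitals.
DUSP1 (chr5:172195645-172195672): gctggtccTTATTTATTtaacttcaccc
DUSP1 (chr5:172195377-172195404): aatataccTTATTTATTtttgtgtaggt
DUSP10 held the pentamer 3 times and SPRY2 2 times; whether the element bears on the ratios was not tested.

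The RefSeq table held promoters for 7 of the 10 genes, with 11 starts between them, each from 250 bases before the start to 50 after it. TGACG on either strand was found at 5 of the 11 (DUSP1, SPRY2 and SPRY4 in the 250 bases before a start, SPRED2 and a second DUSP10 start across or after it), beside 24.6% of 35116 promoters in the table. The full TGACGTCA was found at DUSP1 alone among the 11, beside 1.85% of promoters; it contains TGACG on both strands. The AP-1 motif TGACTCA was found at 1 SPRED2 start (4.95% of promoters), GGGCGG at 8 of 11 (45.0%), and TATAA at 2 of 11 (20.4%). Neither the ETS motif CCGGAAG nor the CArG box of serum response factor was found at the 11 starts, and they were found at 10.3% and 1.29% of promoters. These are matches of letters and describe no binding.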

How the data were processed

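RNA sequencing covered 1 CCE-treated and 1 control library of MDA-MB-231, grouped by the treatment label; the treatment text stands on both samples. The authors deposited raw counts per Ensembl gene; per the submitters' processing notes, HISAT2 was used with hg19 (also given as GRCh37). The sources used here do not give the counting program, its strand setting or the annotation release. Of all records, 66.8% in the CCE library and 62.9% in the control library fell in rows with no gene name, which were dropped. The authors also deposited FPKM values in 215170 rows with repeated gene IDs, summed here per gene, made with a program that no source names.

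Counts were scaled with TMM (edgeR 4.0.16, R 4.3.3), and log2 ratios of CCE over control, without pseudocount, got exact 95% Clopper-Pearson intervals from the CCE share of each gene's 2 counts (scipy 1.17.1). Intervals and floors cover counting error only, and they treat reads as independent although PCR copies are not independent molecules. Genes at 0 in 1 library took a floor of 3 counts. Names, exons and canonical transcripts were taken from GENCODE 44 on GRCh37, which held 55665 of the IDs. GC and length trends were lowess fits (statsmodels 0.14.6, span 0.3). The calls were also run on simulated Poisson counts, which follow the assumption behind the intervals and so say nothing about spread between cultures. Named genes were the 10 genes, and of each list up to 4 called genes with the largest absolute log2 ratio and up to 2 most abundant genes. The 10 genes and all lists were chosen with earlier results of these data known. Alternatives were total-count, upper-quartile, DESeq2 1.42.0 and mitochondria-free scaling, FPKM, other filters, and the GC and length trends.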

Additional observations from a re-analysis of the deposited data

How the results depend on the processing

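The count of 2 genes at least 1.5-fold lower was 1 with total counts as library size, where DUSP4 stood at -0.57. It stayed at 2 with upper-quartile, DESeq2 and mitochondria-free scaling, with no filter, at a mean of 5 CPM, and minus the GC or length trend, and was 3 by FPKM (DUSP10, SPRY2 and SPRED2), where DUSP4 lost its call at -0.54. The count of 0 genes at least 2-fold lower was 3 by FPKM at pseudocounts of 1 and 0.1, for the same 3 genes; the cause was not tested. The counts of higher genes were 0 throughout. The median log2 ratio was between -0.16 and -0.04 by counts, and -0.44 and -0.48 by FPKM at pseudocounts of 1 and 0.1. By FPKM, DUSP5 and SPRY2 changed sign and 5 of 10 values left their counting interval, and minus the length trend DUSP1 stood at 0.01 and DUSP4 at -0.68. With no filter the median over all counted genes was -0.27, against 0.05 for measured genes. No paired analysis was possible because each group has 1 library. The 6.36-fold shallower control library limits precision. DUSP1 and SPRED2, with 207 and 194 control counts, had log2 intervals of -0.27 to 0.16 and -0.32 to 0.13. Differences within those bounds could not be detected, and the spread between cultures is unknown.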
